A study of Homo sapiens with 6 samples.

Results

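The broadest tracts of open chromatin shared by 3 control and 3 chimera libraries of H1155 cells were 303 regions of at least 2000 bp. H1155 is an established human lung carcinoma line. Accessible DNA was mapped by ATAC-seq on chromatin prepared with the Omni-ATAC protocol: a transposase cuts and tags DNA that is free of nucleosomes. The genotype labels are control and chimera, with 3 biological replicates of each, and the titles of the chimera samples read TA. Neither the nature of the chimera and of TA, nor how it was introduced, nor what the control cells carry is stated in the labels. Each library has its own deposited list of peaks, which are stretches where the pileup (the number of sequenced fragments or extended reads lying over a position) exceeds a background estimated from the same library.

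To find the members, peaks of the 6 lists on chromosomes 1 to 22 and X were joined into 1 region wherever they overlapped by at least 1 bp. Merged regions with a peak in all 6 lists and a merged width of at least 2000 bp were kept. Of 149765 merged regions, 56679 had a peak in all 6 lists and 303 of those were that wide. No merged region of that width lacked a peak in any list, since the number of such regions in any set of lists was also 303. The members were therefore chosen by width, and their merged width is given as a description.

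A single site of open chromatin is usually the short stretch left free of nucleosomes by bound transcription factors or by the transcription machinery. Longer tracts arise where several such stretches lie side by side. They are known from active promoters within CpG islands, from divergent promoter pairs and from dense groups of enhancers. A peak caller reports such a tract as 1 long peak or as several shorter ones, depending on whether the signal in the dips stays above the calling threshold.

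The positions below are those of the deposited lists, counted from 1. The submitters' processing notes name GRCh38, but on 14 of 23 chromosomes a peak lies past the end of the GRCh38 chromosome, while on 0 of 23 does one lie past the end of the GRCh37 (hg19) chromosome. The chromosome lengths of both builds were taken from general knowledge, since no file used here gives them. If these lengths are right, the listed positions cannot be those of GRCh38 and all lie within GRCh37, in conflict with the notes. The gene table used here is of GRCh38, so no member was linked to a gene, and no sequence or marker gene of the line could be shown.

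The lists held 101281, 85745 and 109339 peaks in control 1, 2 and 3, and 94500, 98999 and 99675 in chimera 1, 2 and 3. Control 2 thus had the shortest list and control 3 the longest. As the genome-wide background pileup of a library, the most frequent of the backgrounds recovered from the deposited values of its peaks was taken. It was 2.53 to 3.05 in control and 2.74 to 3.77 in chimera libraries. That it equals the true genome-wide value is assumed here. Total read counts were not used here. Since peaks are called only above a threshold, a dip without a peak lay below that threshold in that library and can still have held signal.

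The widths of the members bunched just above the limit. The median merged width was 2144 bp and the range 2000 to 3031 bp. There were 212 members from 2000 to under 2250 bp, 75 from 2250 to under 2500 bp and 16 of 2500 bp or more. The 3 members just inside the limit were chr2:98279158-98281157 (2000 bp), chr2:24148713-24150713 (2001 bp) and chr7:30211220-30213221 (2002 bp). The 3 shared regions just outside it were chr11:75378189-75380187 and chr1:223536324-223538322 (1999 bp each) and chr2:64680280-64682277 (1998 bp). The folds of those inside ran from 8.06 to 11.98 and of those outside from 4.59 to 8.09, over the 6 libraries. These few regions do not stand for their width classes. The median fold was 7.97 in shared regions from 1500 to under 2000 bp and lower, 6.73, in the members.

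Most members were not 1 continuous peak. No member held a single peak of at least 2000 bp in all 6 libraries, and 104 of 303 held one in at least 1 library, some of them beside further peaks. The lists as a whole held 23, 9 and 65 peaks of that length in control 1, 2 and 3, and 14, 18 and 24 in chimera 1, 2 and 3. The longest single peak of a list was 2300 to 2508 bp, so members wider than that were made up of peaks of several libraries or of several peaks. Inside the members, 1 peak was called in 80, 55 and 115 regions in control 1, 2 and 3, and in 75, 67 and 86 regions in chimera 1, 2 and 3. The commonest number in each library was 2 peaks, in 130 to 149 regions. Control 2 had the most regions with 4 or more peaks (30) and control 3 the fewest (6), with the chimera libraries between them (12 to 16).

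**Figure D1:**
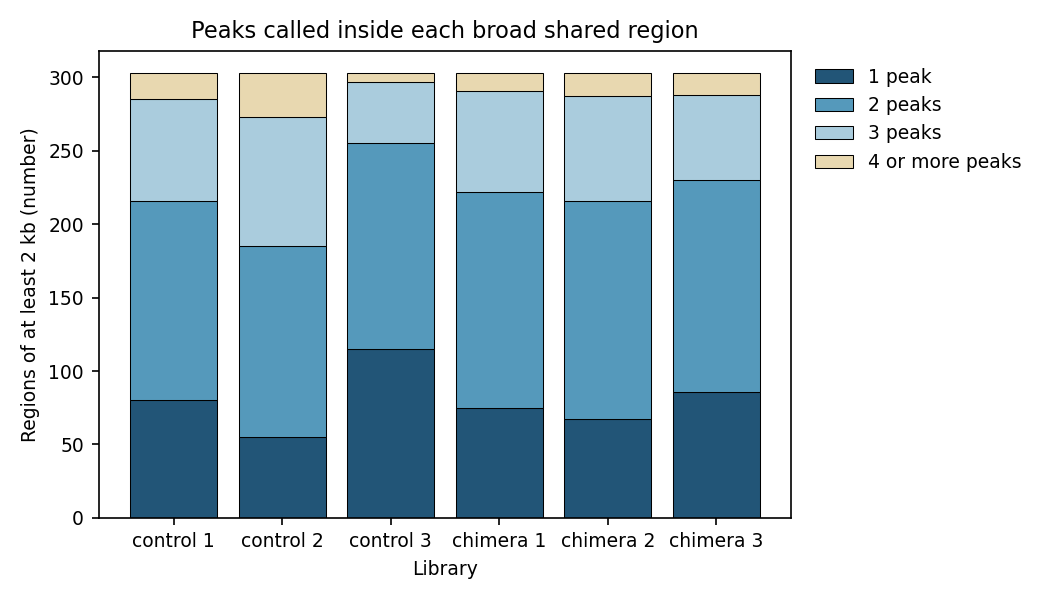
Number of peaks called inside each of the 303 broad shared regions, by library; each bar adds up to 303 regions, split by the number of peaks. Control 3 had the most regions with 1 peak (115) and control 2 the fewest (55), and the 3 chimera libraries lay between them (67 to 86).

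The number of peaks in a member often changed from library to library. Only 11 members had the same number of peaks in all 6 libraries, 90 were split into 2 or more peaks in all 6, and 213 were whole in at least 1. The median range over the libraries was 1 peak and the largest 4 peaks. The split followed the groups in few members: 1 was whole in all 3 control and split in all 3 chimera libraries (0.33%, against 0.235% of all regions with a peak in all 6 lists), and 2 were the reverse (0.66%, against 0.182%). In 5 members every chimera library had more peaks than any control library (1.65%, against 0.256%), and in 2 members fewer (0.66%, against 0.201%). Most narrow regions are 1 peak everywhere and cannot differ in this way. Among the 2644 regions from 1500 to under 2000 bp, the shares with more and fewer peaks were 1.17% and 1.25%. In that class 0.983% were whole in all 3 control and split in all 3 chimera libraries, and 0.946% were the reverse, both above the members' shares. These differences were counted and not tested.

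Exactly 3 members were a single peak in each of the 6 libraries, and they are named here after their values were seen. The first, chr17:73029656-73031751, had the highest pileup of the 302 members whose pileup was recovered in all libraries. Its summit pileup was 272, 212 and 358 in control 1, 2 and 3, and 252, 253 and 311 in chimera 1, 2 and 3. Its peaks covered 1899 to 2095 bp of 2096 bp, and 90.5% of its length lay under a peak in all 6 libraries. The second, chr2:10425422-10427564, is described again below for its summit pileup. The third, chr10:93168900-93170998, had lower pileups of 67 to 89 in all libraries, and its peaks covered 1625 to 2073 bp of 2099 bp.

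The bases of the members were mostly called open in every library. Of the 664 kb of merged length, 56.2% lay under a peak in all 6 libraries, 12.5% in 5 and 9.27% in 4. The remainder was 7.66% in 3, 7.29% in 2 and 7.06% in 1 library alone. The share open in all 6 had a median of 57.0% over members and ran from 11.5% at chr6:1311818-1314224 to 92.9% at chr2:37898063-37900098. The former had 3 to 4 peaks in each library and, with a median of 33, the lowest summit pileup of all members. The latter had 1 peak in each library but chimera 3, which had 2.

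The strongest summit of a member was in many cases at the same place in all libraries, even where the peak edges moved. Its position varied by a median of 118 bp between the 6 libraries. In 140 members the 6 summits lay within 100 bp of each other. In 110 members they were more than 500 bp apart, so that a different part of the region held the highest fold in different libraries. The strongest summit lay a median of 411 bp from the centre of the merged region. In most members, then, the strongest point was well off the middle.

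The 10 widest members show these patterns in single regions. The widest, chr2:54682202-54685232 (3031 bp), had 4, 4 and 2 peaks in control 1, 2 and 3, and 2, 3 and 4 in chimera 1, 2 and 3. Its highest fold was 6.12, 5.74 and 5.97 in control and 5.82, 5.78 and 6.18 in chimera libraries, so the groups overlapped. All 6 strongest summits lay within 100 bp, in the same flank of the region. The next, chr9:132220668-132223509 (2842 bp), had 2 to 4 peaks in each library and folds of 5.67 to 6.53. These folds too were similar in control (6.02, 6.21 and 6.29) and chimera libraries (6.53, 6.38 and 5.67).

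The member with the most pieces was chr8:21987227-21990008 (2782 bp). It had 5, 6 and 4 peaks in control 1, 2 and 3, and 4, 5 and 3 in chimera 1, 2 and 3, with folds of only 3.69 to 4.65. Its strongest summits were up to 949 bp apart between libraries and 31.1% of its length was open in all 6. By contrast, chr5:139076006-139078752 (2747 bp) had 2 peaks in each library except chimera 1, which had 3. Its strongest summits lay within 14 bp of each other, and its folds were 6.23, 5.74 and 6.25 in control and 6.36, 6.21 and 7.14 in chimera libraries. A region can thus be equally wide with 1 fixed strong point or with several weak ones.

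**Figure D2:**
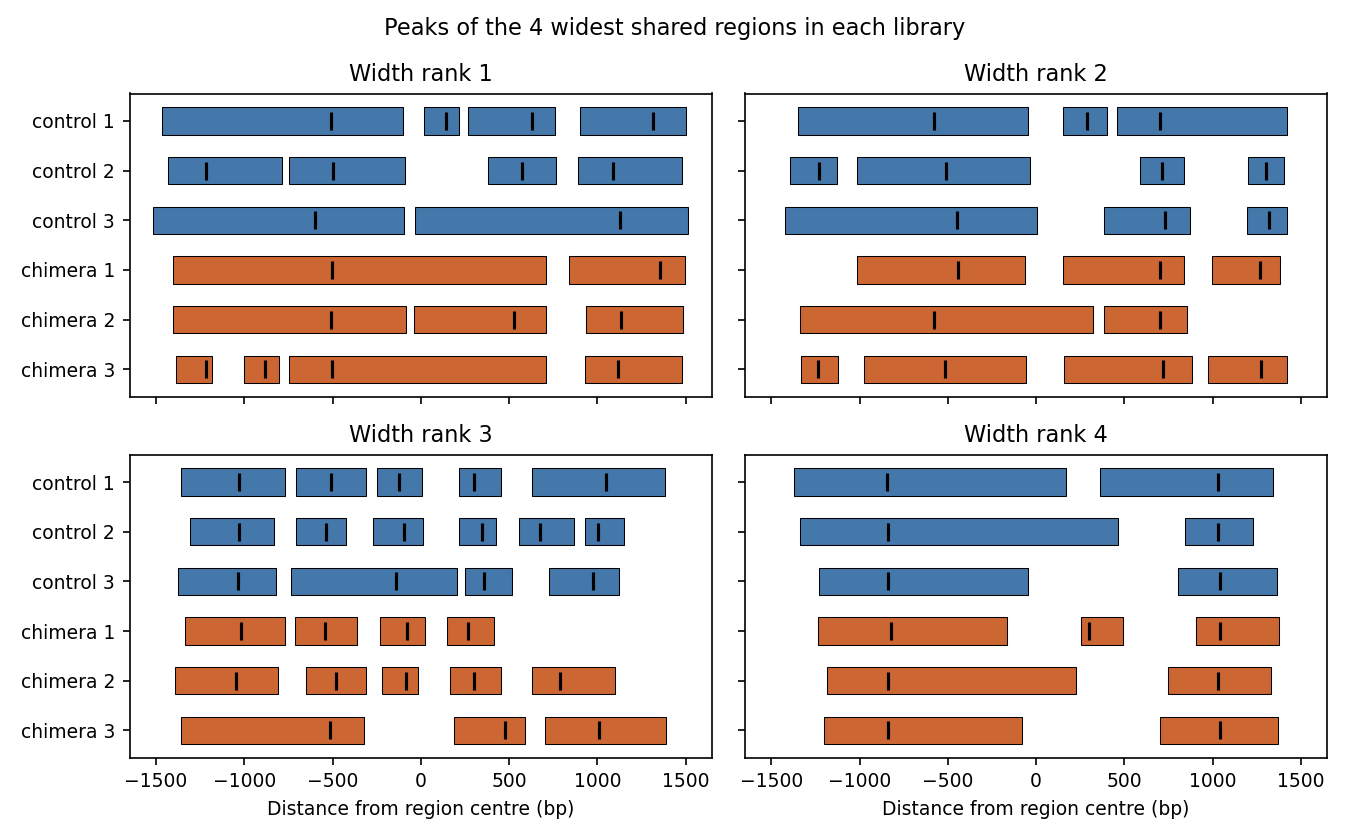
Peaks called in each library (bars, control in blue and chimera in orange; black ticks mark the summits) in the 4 widest shared regions, by distance from the centre of the merged region in bp. The strongest summits of ranks 1, 2 and 4 lay within 100, 140 and 14 bp over the 6 libraries, while those of rank 3 were up to 949 bp apart.

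The other 6 of the 10 widest ranged from 2552 to 2605 bp. They were chr3:185541042-185543646, chr17:27893728-27896323, chr6:101839592-101842180, chr6:147827803-147830386, chr11:72523686-72526263 and chr20:60930598-60933149. Of these, chr11:72523686-72526263 had 77.4% of its length open in all 6 libraries and chr6:101839592-101842180 had 74.0%. The least filled was chr6:147827803-147830386, at 25.7%. In that region the covered length was 1822, 1477 and 2306 bp in control and 1425, 1683 and 1456 bp in chimera libraries, and the groups overlapped.

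Of the width classes of shared regions, the members had the highest median pileup but not the highest median fold. The fold, deposited by the authors, divides the summit pileup by the background estimated around it in that library. Width classes of shared regions were compared by the mean over the 6 libraries, as a description and without a test. Each value was that of the peak with the highest fold in the region. In wide regions it was mostly picked from several peaks: 99.9% of regions under 500 bp but 0.99% of members were 1 peak in all 6 libraries. Peak edges also depend on where the pileup passes the calling threshold, so width and pileup are not independent. The part of both in this comparison was not tested. The median pileup at the strongest summit was 37 in 12420 regions under 500 bp, 48.2 in 29032 from 500 to under 1000 bp and 78.8 in 12280 from 1000 to under 1500 bp. It was 91.3 in 2644 from 1500 to under 2000 bp and 96.7 in the members. The median fold went from 6.04 under 500 bp to 8.65 from 1000 bp, then was 7.97 from 1500 bp and 6.73 in the members.

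The local background behind the fold was raised in the members. Relative to the genome-wide background of the library, it had a median of 1.53 under 500 bp, 1.81 from 500 bp, 2.68 from 1000 bp, 3.44 from 1500 bp and 4.23 in the members. It exceeded 2 in 302 of 303 members, by each member's median over the libraries, and exceeded 8 in 17. The windows over which it was estimated are not known here, and whether they took in the member itself was not tested. The member with the highest local background, chr22:46474576-46476683, also had the lowest fold. There, summit pileups of 109 to 174 stood over local backgrounds of 12.1 to 18.7 times the genome-wide one, and the folds were 2.79 to 3.46. The member with the highest fold, chr16:57219353-57221496, had pileups of 200 to 265 over backgrounds of 4.15 to 5.46 times, and folds of 12.6 to 15.1. These 2 members are the lowest and the highest by median fold, so their distance in fold was set by the choice. Both were named after their values were seen.

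**Figure D3:**
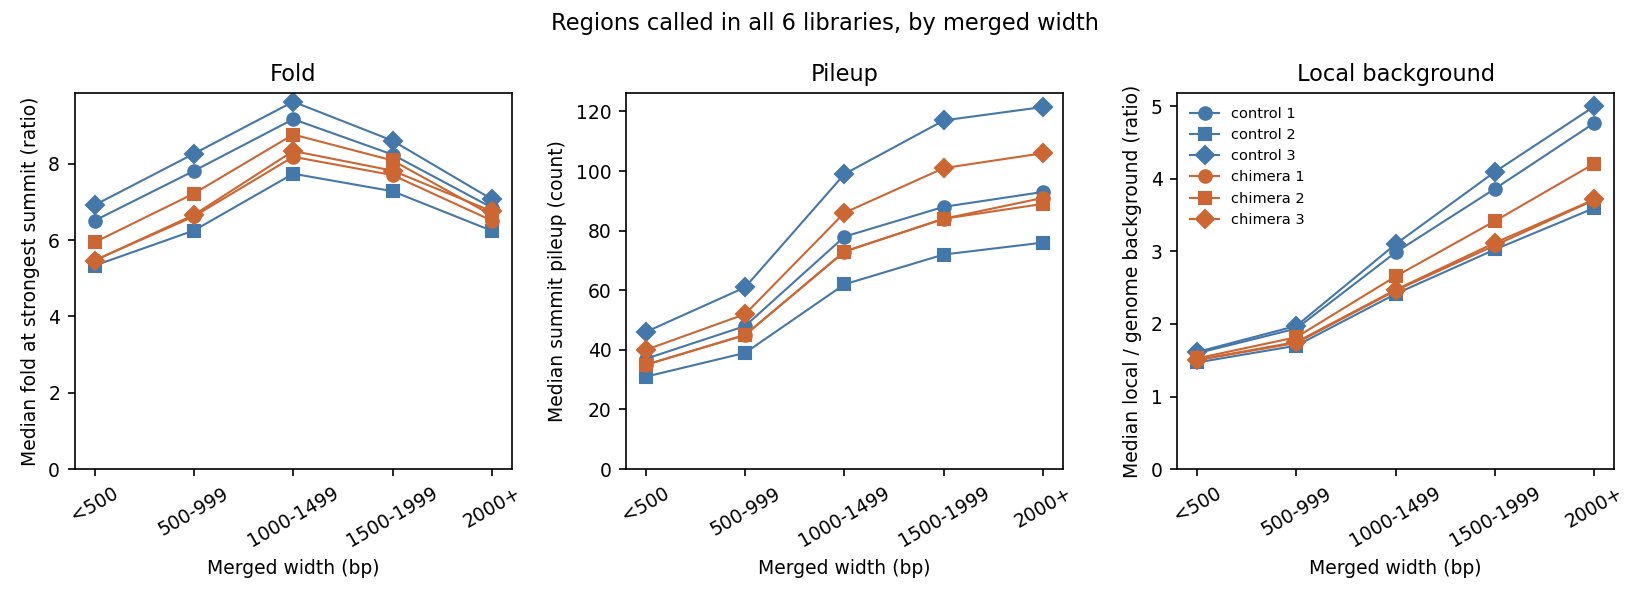
Median fold at the strongest summit, median summit pileup and median local background relative to the genome-wide one, for the regions called in all 6 libraries, by merged width in bp; each line is a library, control in blue and chimera in orange. From the class that starts at 1000 bp to the members the fold was lower in every library, for example from 9.17 to 6.85 in control 1, while the pileup and the local background were higher.

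The members lay further from other shared regions than narrower ones did. The median distance to the nearest other shared region, edge to edge, was 12.3 kb for members and 9.06 kb for the 56376 narrower shared regions. Another shared region lay within 10 kb of 114 members (37.6%) and of 29936 narrower regions (53.1%). In the 2644 regions from 1500 to under 2000 bp the median distance was 13.9 kb, and 38.9% had another shared region within 10 kb. Within 1 kb the shares were 4.62% of the members (14) and 12.6% of all narrower regions. A wide region takes up space that could hold a neighbour, and merging joins close neighbours into 1 region, so these shares are in part fixed by the rule and were not tested. Only 8 pairs of consecutive members had centres within 100 kb of each other, and the closest pair was 7.75 kb apart.

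Members were found on all 23 chromosomes used. Chromosome 2 held 29, chromosome 1 held 28, chromosome 6 held 23 and chromosome 8 held 22. Per 1000 shared regions the number was highest on chromosome 21 (11.1, from 7 members of 630 regions) and chromosome 8 (9.19). It was lowest on chromosome 20 (1.79, from 3 members of 1673 regions) and chromosome 16 (2.37). These counts are small and were not tested.

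The amount of open chromatin called inside the members overlapped between the groups. Peaks covered 555, 489 and 590 kb in control 1, 2 and 3, and 510, 522 and 531 kb in chimera 1, 2 and 3. The control libraries held both the lowest and the highest value. The means were 544 ± 51.4 kb in control and 521 ± 10.6 kb in chimera libraries (SD, n = 3 each), and the difference of −23.1 kb did not exceed the spread between replicates (two-sided exact permutation test, p = 0.5). It was −51.0 kb without control 2, where the groups did not overlap (exact permutation p = 0.1), and −0.329 kb without control 3 (p = 1), so its size rested on these 2 libraries. In these comparisons over libraries, leaving out a library kept the members chosen from all 6 lists. Control 3 set 204 of the members' outer edges, against 72 to 125 for each other library. Covered length is thus not independent of the choice by width. The 6 libraries had the same order by covered length as by the number of peaks in the whole list, and the part of list length in this comparison was not tested. With 3 libraries against 3 the smallest p possible is 0.1, here and in all tests over libraries.

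The number and the width of the peaks in the members overlapped as well. The members held 633, 702 and 546 peaks in control 1, 2 and 3, and 624, 643 and 609 in chimera 1, 2 and 3. Control 2 cut the regions into the most pieces and control 3 into the fewest. The means were 627 ± 78.2 and 625 ± 17.0 peaks (SD, n = 3 each, exact permutation p = 1). The difference of −1.67 peaks changed sign without control 1 (1.33), control 2 (35.8) or chimera 3 (6.5). The median peak width was 741, 534 and 1015 bp in control and 708, 669 and 734 bp in chimera libraries. The means were 763 ± 241 and 704 ± 32.7 bp (SD, n = 3 each, exact permutation p = 0.7). Without control 3, the sign of the width difference turned from −59.3 to 66.4 bp.

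The covered width of the members relative to narrower shared regions gave the only groups that did not overlap. On the log2 scale the median member exceeded the median narrower region by 1.70, 1.75 and 1.70 in control 1, 2 and 3, and by 1.70, 1.68 and 1.69 in chimera 1, 2 and 3. The 3 chimera values were below all 3 control values. The difference was −0.03 (log2), with means of 1.72 ± 0.03 and 1.69 ± 0.01 (SD, n = 3 each). The exact permutation p was 0.1, the smallest possible, and 0.8 after Benjamini-Hochberg adjustment over the 8 measures compared in this way. The difference was −0.01 without control 2, where the p was 0.2. Width also chose the members, and control 3 set 204 of the outer edges of members against 72 to 125 for each other library.

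The median fold of the members differed between groups by less than the spread over libraries. The median fold was 6.85, 6.24 and 7.07 in control 1, 2 and 3, and 6.51, 6.65 and 6.75 in chimera 1, 2 and 3. The chimera values lay inside the control range. The means were 6.72 ± 0.43 and 6.64 ± 0.12 (SD, n = 3 each, exact permutation p = 0.8). The difference of −0.0826 was 0.0917 without control 3. Relative to narrower shared regions, the log2 fold of the members was −0.19, −0.02 and −0.22 in control and −0.03, −0.12 and 0.01 in chimera libraries. These too overlapped, with a difference of 0.09 (exact permutation p = 0.3). It was 0.16 without control 2 and 0.05 without control 3.

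**Figure D4:**
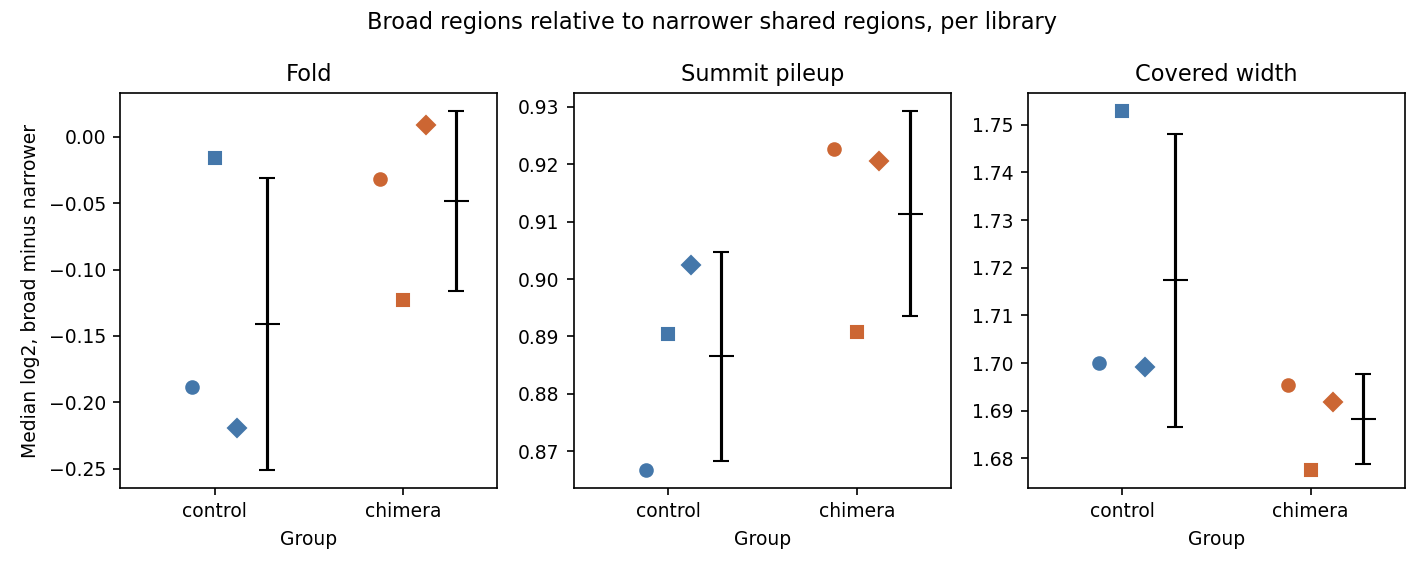
Median log2 value of the 303 broad regions minus that of the narrower shared regions, per library (points; circle, square and diamond for replicates 1, 2 and 3), with the mean and SD of each group in black, for the fold, the summit pileup and the covered width. The 3 axes have different ranges and do not start at 0; the groups overlap in fold and pileup, and in covered width the 3 chimera libraries (1.68 to 1.70) lie just below the control libraries (1.70 to 1.75).

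Fitted region by region, no member passed the test in fold or in covered width. The fits used limma over all 56679 regions called in all 6 libraries, after each library was centred on its median. In fold, 0 of 303 members were called higher and 0 lower at an adjusted p under 0.05 (limma, Benjamini-Hochberg over all regions tested, lowest adjusted p of a member 0.173). Over all regions tested 0.00706% were called higher and 0.00353% lower. At an unadjusted p under 0.05, 12 members were higher (3.96%, against 5.7% of all regions) and 2 lower (0.66%, against 5.58%). In covered width 0 members were called in either direction, as were 0.0% of all regions (lowest adjusted p of a member 0.270 by limma). At an unadjusted p under 0.05, 11 members were wider (3.63%, against 3.64%) and 29 narrower (9.57%, against 4.47%). The groups did not overlap, with chimera wider, in 12 members (3.96%, against 6.37% of all regions), and with chimera narrower in 23 (7.59%, against 6.35%). The members were chosen by merged width, and control 3 set 204 of their outer edges against 72 to 125 for each other library. These shares of covered width are thus not independent of that choice, and its part was not tested.

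The fold of the members leaned one way after centring. The log2 difference, chimera minus control, was above 0 in 241 of 303 members (79.5%), against 55.0% of all regions. Its median was 0.11 in members and 0.03 over all regions, and its range over members was −0.40 to 0.52. The groups did not overlap, with chimera higher, in 46 members (15.2%, against 9.5% of all regions), and with chimera lower in 3 (0.99%, against 6.99%). Without centring the median was 0.00 in members and −0.08 over all regions. Across the width classes the median difference was −0.02 under 500 bp, 0.01 from 500 bp, 0.06 from 1000 bp, 0.09 from 1500 bp and 0.11 in the members. All members share the same 6 libraries, so these counts of members do not measure the spread between libraries. Per library, the members' fold relative to narrower shared regions overlapped between the groups (exact permutation p = 0.3).

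The local background also differed between libraries, and its part in this lean was not tested. In the members its median was 4.77, 3.60 and 5.0 times the genome-wide background in control 1, 2 and 3, and 3.71, 4.21 and 3.72 times in chimera 1, 2 and 3. Control 1 and 3 were the highest, and control 2 was the lowest. Relative to the narrower shared regions the difference in local background was −0.08 on the log2 scale (exact permutation p = 0.4). The summit pileup does not contain the local background. Its median log2 difference was 0.01 in members and −0.01 over all 56580 regions with a recovered pileup, and it was above 0 in 52.6% of members and 49.1% of all regions. Per library, the members' log2 pileup exceeded that of narrower regions by 0.87, 0.89 and 0.90 in control and by 0.92, 0.89 and 0.92 in chimera libraries (difference 0.02, exact permutation p = 0.2).

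The largest differences in fold with groups that did not overlap are given without a claim of difference, since none passed the test. At chr1:227132961-227135013 (2053 bp) the fold was 7.0, 6.33 and 7.30 in control 1, 2 and 3, and 8.24, 10.04 and 9.19 in chimera 1, 2 and 3. All 3 chimera libraries were above all 3 control libraries, by 0.52 ± 0.15 on the centred log2 scale (SE, adjusted p = 0.173 by limma). At chr19:47729314-47731462 (2149 bp) it was 4.42, 4.80 and 4.64 in control and 5.48, 5.56 and 6.31 in chimera libraries. Among those with lower fold, chr14:74251983-74254130 (2148 bp) had 7.73, 6.44 and 8.19 in control and 4.96, 5.68 and 5.07 in chimera libraries. Every chimera value was below every control value there (log2 difference −0.40 ± 0.16, SE, adjusted p = 0.344 by limma).

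The remaining 3 named by the same rule were chr13:78270962-78273235 (log2 difference 0.40), chr14:35342433-35344787 (−0.34) and chr7:26436972-26439181 (−0.16). The order at chr14:35342433-35344787 was 10.2, 8.05 and 9.02 in control against 6.16, 6.50 and 7.32 in chimera libraries. Its covered length overlapped between groups: 1992 to 2132 bp were covered in control and 1963 to 2159 bp in chimera libraries.

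The largest differences in covered width with groups that did not overlap are likewise given as values. At chr22:45404645-45406721 (2077 bp) peaks covered 1985, 1353 and 1594 bp in control 1, 2 and 3, and 593, 1266 and 1168 bp in chimera 1, 2 and 3. The chimera values were all lower, with a centred log2 difference of −0.74 ± 0.26 (SE, adjusted p = 0.508 by limma). At chr6:153450973-153453227 they covered 1685, 1553 and 2029 bp in control and 1458, 709 and 1073 bp in chimera libraries, and at chr9:114360107-114362231 1735, 1057 and 1956 bp against 674, 1141 and 1169 bp. In the last the values before centring overlapped, since control 2 (1057 bp) was below 2 of the 3 chimera libraries.

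The 3 with the largest differences in the other direction differed by less than that. At chr3:177076027-177078089 the covered length was 1529, 1187 and 1437 bp in control and 1882, 1757 and 1587 bp in chimera libraries, and the groups did not overlap (log2 difference 0.36 ± 0.10, SE, adjusted p = 0.408 by limma). The other two were chr7:103968020-103970200 and chr5:75378731-75380839, with log2 differences of 0.36 and 0.33. At chr7:103968020-103970200 control 2 alone had a short cover, of 1063 bp, and before centring the groups overlapped. That region also had the lowest local background of all members, with a median of 1.80 times the genome-wide one.

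In the summit pileup, a measure added after the data were seen, 8 members passed the test. The rule for named regions did not cover this measure, so 5 of the 8 are named only after their values were seen; the other 3 are also among the largest differences in fold above. The fit called 5 of 302 members higher (1.66%) and 3 lower (0.993%) in chimera libraries at an adjusted p under 0.05 (limma, Benjamini-Hochberg over 56580 regions), against 1.28% and 1.17% of all regions. The members' shares were thus near those of all regions. At an unadjusted p under 0.05, 21 members were higher (6.95%, against 7.32%) and 11 lower (3.64%, against 7.61%). The groups did not overlap, with chimera higher, in 28 members (9.27%, against 9.29%), and with chimera lower in 21 (6.95%, against 9.81%). The pileup of 1 member, chr15:20561743-20563951, was recovered in 1 of 6 libraries and it was left out. Its folds were 10.8 to 12.5 in control and 11.3 to 12.1 in chimera libraries.

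The 3 members with a lower pileup were on chromosomes 21, 14 and 2. Pileups are given after scaling each library to a common median. At chr21:47037193-47039318 the scaled pileup was 53.0, 70.9 and 46.3 in control 1, 2 and 3, and 28.7, 32.9 and 29.1 in chimera 1, 2 and 3. All chimera values were below all control values, by 0.89 ± 0.21 on the log2 scale (SE, adjusted p = 0.00908 by limma). Its local background was also lower, at 3.44 to 3.93 times the genome-wide one in control and 2.14 to 2.38 times in chimera libraries, and the centred log2 difference in fold was −0.28. The strongest summits there lay up to 1825 bp apart between libraries.

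At chr14:74251983-74254130, which also had the lowest log2 difference in fold, the scaled pileup was 92.9, 75.8 and 83.1 in control and 47.8, 56.3 and 55.5 in chimera libraries (log2 difference −0.66 ± 0.16, SE, adjusted p = 0.0129 by limma). Here the 6 strongest summits lay within 60 bp. Peaks covered 1449, 1705 and 1711 bp in control and 800, 1241 and 1265 bp in chimera libraries, so fold, pileup and covered width were all lower in every chimera library. At chr2:10425422-10427564, a single peak in all 6 libraries, the scaled pileup was 142, 137 and 136 in control and 104, 102 and 107 in chimera libraries (log2 difference −0.41 ± 0.12, SE, adjusted p = 0.0483 by limma). The call was the least stable of the 8: it held in 1 of 12 other settings and was lost with each library left out in turn (adjusted p = 0.0885 to 0.161 by limma). Its centred log2 difference in fold was −0.10, with local backgrounds of 5.80 to 8.47 times the genome-wide one in control and 5.27 to 5.62 times in chimera libraries.

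Of the 5 members with a higher pileup, chr2:5160483-5162501 (2019 bp) had the largest difference. The scaled pileup was 71.0, 42.3 and 51.8 in control and 86.0, 114 and 71.9 in chimera libraries (log2 difference 0.73 ± 0.17, SE, adjusted p = 0.00843 by limma). Control 1 lay just below chimera 3. At chr1:227132961-227135013, the member with the highest log2 difference in fold, it was 67.0, 72.1 and 69.0 in control and 97.7, 118 and 102 in chimera libraries (log2 difference 0.61 ± 0.14, SE, adjusted p = 0.00887 by limma). This region was higher in pileup but not wider, with 1537 to 1671 bp covered in control and 1100 to 1606 bp in chimera libraries. Its strongest summits lay within 50 bp in all 6 libraries.

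The other three were chr17:56016897-56018902, chr8:10260692-10263021 and chr19:47729314-47731462. On chromosome 17 the scaled pileup was 49.0 to 59.7 in control and 70.1 to 89.2 in chimera libraries (log2 difference 0.58). On chromosome 8 it was 72.1 to 115 in control and 123 to 135 in chimera libraries (0.53), and on chromosome 19 it was 67.0 to 93.2 and 98.8 to 115 (0.47). In none of the 8 did the fit of the fold pass the test (adjusted p = 0.173 to 0.867 by limma). The calls in pileup rest on few libraries: with each library left out in turn, 1 to 3 members were called higher and 1 to 2 lower. Without centring, and in limma without a trend of variance on level, 0 of the 8 were called.

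**Figure D5:**
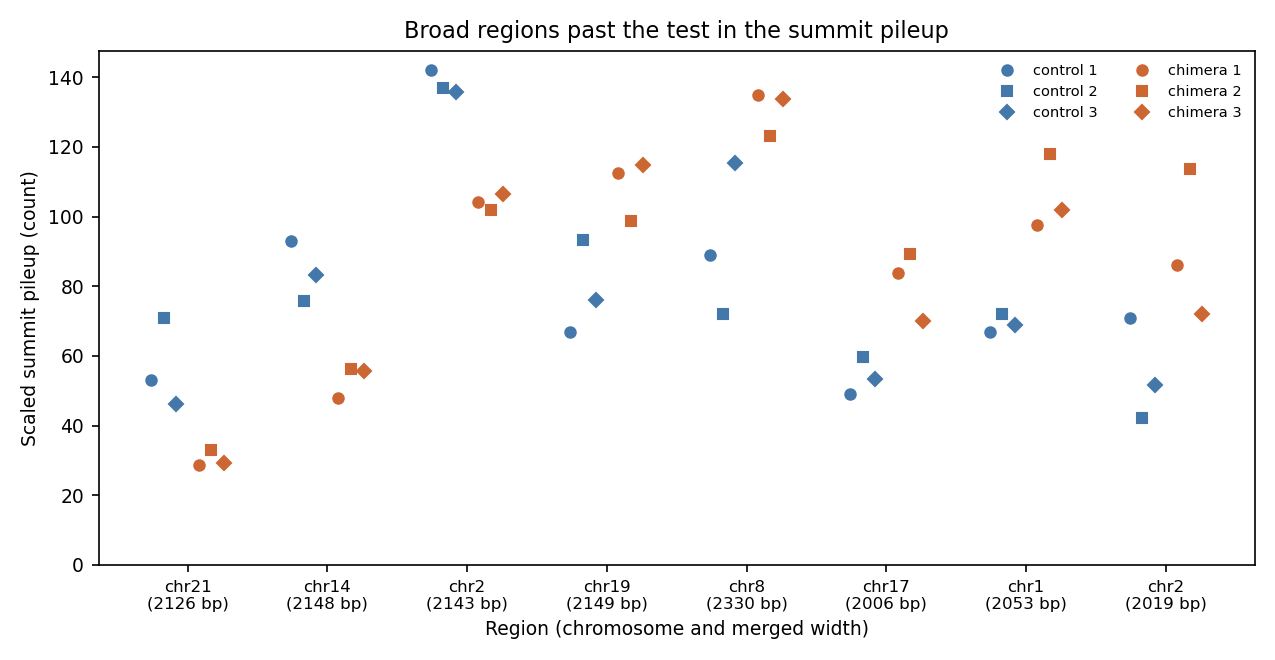
Summit pileup, scaled to a common median per library, of the 8 broad regions that passed the test in that measure (limma, adjusted p under 0.05), by library (control in blue, chimera in orange; circle, square and diamond for replicates 1, 2 and 3); regions are named by chromosome and merged width. The first 3 are lower and the other 5 higher in chimera libraries, and in each the 2 groups do not overlap.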

How the data were processed

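The 6 files are peak lists of 1 library each, made with MACS2 per the file names. HOMER 4.9 and GRCh38 are named without a role by the submitters' processing notes. For MACS2 no version or setting is known here, nor are aligner and read filters. In each deposited list, column 7 is the authors' fold (a ratio of summit pileup to local background), columns 8 and 9 are −log10 p and −log10 q, and the positions are in bp. Fold and p refer to the background of the same list.

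Chromosome lengths of GRCh37 and GRCh38, written from general knowledge, were compared with the last peak of each chromosome. Chromosomes other than 1 to 22 and X (0.0168% of peaks) were left out. Per region and library, the highest fold and the bp under peaks were taken. Their log2 values were centred per library on the median of the 56679 regions with a peak in all 6 lists and fitted with limma 3.58.1 (trend of variance on level, no pseudocount), in R 4.3.3. Every member has a value in each library, so no filter on low values was needed. Values per library were compared with two-sided exact permutation tests. The summit pileup and local background were recovered from columns 7 and 8 under a Poisson model (−log10 p matched within 0.005), which succeeded for at least 99.9% of the peaks of every list. The most frequent local background of a list was taken as its genome-wide background, and local backgrounds below it were then not allowed. Named regions were the 10 widest members, the members past the test in fold or covered width (or, where none passed, the 3 with the largest change in each direction and no overlap of groups), and those beside the width limit.

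The members and measures were chosen with earlier results of these data known. The labels call the libraries biological triplicates and do not say whether they are separate cultures, so p-values measure the spread between these libraries. Tested on simulated data of 56679 regions, the fit of fold recovered 63% of 200 changes of 1 on the log2 scale and 0% of changes of 0.5. For covered width it recovered 32% and 0%. For the summit pileup, on 56580 regions, it recovered 33% and 0%. Each simulated region took its observed mean and its observed SD within groups, and only 200 regions were changed. The real pileup fit called 1.28% of regions higher and 1.17% lower, so the recovered shares need not hold for it.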

Additional observations from a re-analysis of the deposited data

How the results depend on the processing

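The number of members was set by the rule: 2947 at 1500 bp, 1 at 3000 bp, 525 with peaks up to 100 bp apart merged and 0 if each list had to hold 1 peak of at least 2000 bp. It was 208 to 279 with 1 library left out and the members chosen again, lowest without control 3. No member was called in fold or covered width under any other setting that could be fitted, but the summit pileup, added after the data were seen, called 5 higher and 3 lower. Those counts were 0 and 0 without centring, without the trend and at 3000 bp, 15 and 16 at 1500 bp, and 1 to 3 and 1 to 2 with 1 library left out. The difference in median fold (−0.08) was −0.322 to 0.0917 with 1 library left out, in median peak width (−59.3 bp) −174 to 66.4 bp, in number of peaks (−1.67) −42.2 to 35.8 and 2 at 1500 bp. In relative width (−0.03) it was −0.04 to −0.01, and 0.0102 for the 1 member at 3000 bp. The centred fold difference of chr14:35342433-35344787 turned to 0.15 with the mean fold weighted by width. That setting also gave smaller differences at chr14:74251983-74254130 (−0.0977), chr1:227132961-227135013 (0.265), chr13:78270962-78273235 (0.180) and chr7:26436972-26439181 (−0.0800). At chr19:47729314-47731462 it gave a slightly larger one (0.463). The cause of none of these was tested. The shared replicate numbers gave no pairing: same-numbered deviations correlated at −0.005, −0.06 and −0.01 in fold. With the replicate number as a block, 0 members were called in fold and covered width, and 4 higher and 2 lower in pileup; sign flips within numbers gave p of 0.25 or more, the smallest possible. The rule that each list hold 1 peak of 2000 bp left no member to test.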
